A study of Mus musculus with 2 samples.

Results

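The cells described here were gamma delta-like T cells, that is T cells carrying RNA of the constant regions of the gamma and delta chains of the T cell receptor, taken from B16-F10 melanoma. They were chosen by their own counts. A cell was a member where mitochondrial genes gave under 10% of its unique molecular identifiers (UMIs), where Cd3d, Cd3e and Cd3g together had at least 2 UMIs, where Trdc and Trgc1 together had at least 2, where Cd4, Cd8a and Cd8b1 had 0, where the proliferation genes Mki67 and Top2a had at most 1, and where the macrophage genes C1qa, C1qb and C1qc had at most 2. Of 12078 cells that passed the mitochondrial limit, 89 were members, 50 of 6284 in the Irg1+/+ library and 39 of 5794 in the Irg1-/- library. B16-F10 is a mouse melanoma cell line, and 200000 cells were injected under the skin of the right flank of C57BL/6 mice. The 2 groups were wild-type mice (Irg1+/+) and mice with both germline copies of Irg1 disrupted (Irg1-/-), with no further treatment. By the study's methods, mice given tumours under the skin were females of 8 to 10 weeks. Irg1, listed in the files under its current symbol Acod1, encodes the enzyme that makes itaconate, and it is expressed chiefly in activated macrophages. Tumours were taken on day 10, tissue of 3 mice of a genotype was combined into 1 sample, and sorted Cd45+ cells, about 6000 per sample, were captured on the BD Rhapsody platform. Since each genotype is 1 library, no difference between genotypes could be tested, and every interval given here is a 95% interval for counting error only.

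Gamma delta T cells rearrange a different pair of receptor genes from the alpha beta T cells that carry Cd4 or Cd8, and most of them recognise antigen without classical MHC molecules. In the mouse they leave the thymus already set to one of a pair of programmes. Type 17 cells carry the transcription factor Sox13, the kinase Blk, the receptors for IL-23, IL-1 and IL-7 and the scavenger receptor Scart1 (Cd163l1), and they release IL-17A. Type 1 cells carry T-bet (Tbx21) and release interferon gamma, CCL5 and granzymes, as NK cells and cytotoxic T cells do. A large group of type 17 cells in skin and other barrier tissues and in tumours uses an invariant receptor in which the Vγ6 chain pairs with a delta chain whose variable gene is Trdv4.

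The counts of the gamma genes need care because the 4 gamma constant genes resemble each other. The first 60 bases of the first constant exon are shown because they show how far a read can tell these genes apart. Coordinates are of GRCm38 with GENCODE gene models, the sequences are 5′ to 3′ on the strand of the gene, and capitals mark bases that differ from Trgc1.
Trgc1, chr13:19214103-19214162, plus strand: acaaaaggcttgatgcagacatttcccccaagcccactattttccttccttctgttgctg
Trgc2, chr13:19307492-19307551, minus strand: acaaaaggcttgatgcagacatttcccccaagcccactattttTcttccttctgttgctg
Trgc3, chr13:19260885-19260944, plus strand: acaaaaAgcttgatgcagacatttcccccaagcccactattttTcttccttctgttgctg
Trgc4, chr13:19344558-19344617, plus strand: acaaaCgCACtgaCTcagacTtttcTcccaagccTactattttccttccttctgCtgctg
In this window Trgc2 differed from Trgc1 at 1 base, Trgc3 at 2 and Trgc4 at 10. Of all 50-base words of the Trgc1 exons, 29.6% were found in another gamma constant gene, and none of them in Trgc4. Trgc1 lies at chr13:19214103-19217024. How reads that match several genes were counted was not given in the sources used here, and the method reads mainly the 3′ ends of transcripts. Of the 50-base words of the last 300 bases of Trgc1, 21.9% were found in Trgc2 and 0 in Trgc3 and in Trgc4. The split of UMIs between Trgc1 and Trgc2 is therefore uncertain, while that between Trgc1 and Trgc4 rests on distinct sequence. The delta constant gene Trdc (chr14:54142851-54148868, plus strand) has no such copy, and its first constant exon opens as follows.
Trdc, chr14:54142851-54142910, plus strand: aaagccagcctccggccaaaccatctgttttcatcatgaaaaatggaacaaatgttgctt

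The members were cells of moderate depth. Leaving out mitochondrial genes, they held from 580 to 7797 UMIs in the Irg1+/+ library, with a median of 2641, and from 647 to 5656 in the Irg1-/- library, with a median of 2418. Their sums were 151492 and 101431 UMIs. The medians of CD8 T cells chosen with the same limits, but with Cd8 in place of gamma and delta UMIs, were 3119 and 2505, so depth differed little between these gates. The 2 libraries shared 36 barcodes, and none of these belonged to a member. Each level below is the sum of a gene's UMIs over the cells of a gate, scaled to a total of 1000000 UMIs (CPM), and levels were not compared between genes. A gate is the set of cells that meets stated limits on UMIs of marker genes.

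Acod1, the disrupted gene, was counted as a check of the labels. It gave 87.8 CPM over the kept cells of the Irg1+/+ library and 108 CPM in the library labelled Irg1-/-, and 3 and 0 UMIs in members. The UMIs therefore do not show the loss that the label names. Which part of the gene is missing was not given in the sources used here, and a 3′ count from a transcript that still holds its end checks nothing. The genotype names used here are those of the labels, and every direction between the libraries rests on the labels alone.

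The genes that chose the members are given as a description. Trdc stood at 1749 CPM in the Irg1+/+ members and 3125 CPM in the Irg1-/- members, and Trgc1 at 1241 and 1351 CPM. Trdc was seen in 36 of 50 and 36 of 39 members, and Trgc1 in 44 and 30. The remaining 14 Irg1+/+ and 3 Irg1-/- members entered through Trgc1 alone. Only 4 and 2 members stood at the limit of 2 UMIs, while 13 and 17 further cells met every other limit with 1 UMI. In the Irg1+/+ library 3 of these 13 cells carried type 17 UMIs, up to 18 in a cell, and 9 carried UMIs of the alpha chain gene Trac. In the Irg1-/- library 1 of the 17 carried type 17 UMIs, 6 carried Trac, and their median of Ly6c2 and Ccl5 UMIs was 18. Trdc UMIs were not restricted to the members. A Trdc UMI was found in 55 of 198 (27.8%) and 107 of 400 (26.8%) NK cells, against 2 of 36 and 2 of 52 B cells, in which it has no known role. The NK gate required at most 1 Cd3 UMI and at least 2 UMIs of Ncr1 and Klrb1c, with no limit on Trdc or Trgc1. It therefore does not exclude gamma delta T cells with few Cd3 UMIs, and their part in this share was not tested. The median depths of these gates were 2532.5 and 2567 UMIs in NK cells and 2039.5 and 2278 UMIs in B cells. Trgc1 was nearer background in NK cells, with 2 of 198 and 7 of 400.

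The label was checked against markers that the rule did not use. Il7r, the receptor chain for IL-7, stood at 2713 CPM (interval 2457 to 2988) in the Irg1+/+ members and 2129.5 CPM (1855 to 2433) in the Irg1-/- members. CD8 T cells had 548 and 1032 CPM, CD4 T cells 1181 and 1707 CPM, T cells with neither Cd4 nor Cd8 nor gamma and delta UMIs 935 and 877 CPM, and NK cells 264 and 85.1 CPM. Il7r was therefore higher in members than in each of these gates, although in the Irg1-/- library the interval for CD4 T cells (1561 to 1864) touched that of the members. Rora, a nuclear receptor found in type 17 lymphocytes, did not single the members out. It stood at 660 CPM in the Irg1+/+ members against 573 CPM in CD4 T cells, and at 394 CPM in the Irg1-/- members against 538 CPM in CD4 T cells, while in CD8 T cells it was 275 and 202 CPM. In the 36 and 36 members with a Trdc UMI, an alternative chosen after seeing the data, Il7r stood at 2441 CPM (2166 to 2742) and 2144 CPM (1853 to 2468) and Rora at 548 and 409 CPM. In these cells the Il7r interval of the Irg1-/- library again touched that of its CD4 T cells, and Rora lay below CD4 T cells in both libraries.

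Alpha and beta chain RNA was present in most members. At least 2 UMIs of Trac, Trbc1 and Trbc2 together were found in 42 of 50 and 32 of 39 members. Most of this was Trbc2, at 1241 and 996 CPM. Gamma delta T cells can transcribe the beta constant region without a full alpha beta receptor, whereas rearrangement of the alpha chain, and with it full use of Trac, removes the delta genes on that chromosome. At least 2 Trac UMIs were found in 16 of 50 and 4 of 39 members, against 130 of 164 and 59 of 83 CD8 T cells. The Trac level was 403 and 197 CPM in members and 1568.5 and 1324 CPM in CD8 T cells. In the Irg1+/+ library the Trac level was higher in the 14 members without a Trdc UMI, at 777 CPM against 291 CPM in the others. The 14 held 27 Trac UMIs in 8 cells, and the others 34 in 19 cells. In the members without a Trdc UMI the alpha chain RNA goes against the label, and the levels and genes most open to this are given below with and without them.

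UMIs of other cell types were present and differed in amount between the libraries. Macrophage markers summed to 444 UMIs (2931 CPM) and 247 UMIs (2435 CPM), led by Lyz2 with 221 and 133, and only 11 of 50 and 17 of 39 members had no C1qa, C1qb or C1qc UMI at all. Melanocyte markers summed to 92 UMIs (607 CPM) in the Irg1+/+ members and 3 UMIs (29.6 CPM) in the Irg1-/- members, led by Dct with 41, of which 1 cell held 31, and Tyr was at 0 in both. NK markers that T cells seldom carry summed to 50 and 68 UMIs (330.1 and 670.4 CPM). Markers of B cells gave 1 UMI in each library, with Cd79a, Ms4a1 and Ebf1 at 0. Neutrophil markers gave 4 and 7 UMIs, mast cell markers 7 and 1, dendritic cell markers 25 and 3, and Foxp3, which defines regulatory T cells, 3 and 1. Gata3 led the markers of type 2 innate cells, which summed to 37 and 31 UMIs with Il13, Il5 and Il4 at 0. The part of these other cell types in the results below was not tested.

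The members were set beside each of the other lymphocyte gates. Among genes with at least 50 UMIs over members and CD8 T cells, 103 of 2980 (3.46%) were at least 2-fold higher and 101 (3.39%) at least 2-fold lower in the Irg1+/+ members, and in the Irg1-/- library the numbers were 39 (2.7%) and 43 (2.98%) of 1445. Scaling by the trimmed mean of M values (TMM) would shift the log2 ratios to CD8 T cells by -0.103 in the Irg1+/+ library. A gene can reach 50 UMIs through the members alone where it is high in them, so no count over a gene list is given against these gates. Genes of a wider type 17 list did not all stand out. Maf, a transcription factor of type 17 cells, stood at 284 and 444 CPM in members, above CD8 T cells with 68.3 and 125.5 CPM but below CD4 T cells with 790.5 and 723 CPM. Icos, a costimulatory receptor, stood at 1195 and 956 CPM in members and at 2624 and 2019 CPM in CD4 T cells. Cxcr6, a homing receptor of tissue lymphocytes, stood at 436 and 335 CPM in members, against 239 and 126 CPM in CD8 T and 187 and 151 CPM in CD4 T cells. The Scart1 gene Cd163l1 had the widest gap to the nearest of 4 other lymphocyte gates, CD8 T, CD4 T, Cd4- Cd8- T and NK cells. It stood at 442 and 572 CPM, a log2 ratio of at least 5.25 over each of them in each library.

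Next in that order was Trgc4, the gamma constant gene joined to Vγ1 chains, which the rule did not use. It stood at 330.1 and 582 CPM, with a smallest log2 ratio of 3.10. Serpinb1a, a protease inhibitor found in type 17 lymphocytes, followed with 442 and 434 CPM and a smallest ratio of 2.79. The paired membrane channel genes Tmem176a and Tmem176b, which are found in type 17 lymphocytes, stood at 429 and 542 CPM and at 416 and 700.0 CPM, with smallest ratios of 1.99 and 1.28. Trgc2 at 310.2 and 522.5 CPM had 0.93, although its reads can be shared with Trgc1. The remaining genes of this order were closer to the other gates. Tmem64 stood at 832 and 601 CPM, the insulin receptor substrate Irs2 at 535 and 345 CPM, the sialomucin Cd164 at 1076 and 966 CPM, and the cell adhesion gene Emb at 1776 and 2120 CPM. In the members with a Trdc UMI, Cd163l1 stood at 522.5 and 641 CPM, Trgc4 at 419.7 and 630 CPM, Serpinb1a at 351 and 486 CPM, Tmem176a at 377 and 586 CPM and Tmem176b at 368 and 729.5 CPM. In the same cells Tmem64 stood at 694 and 652 CPM, Irs2 at 445 and 365 CPM, Cd164 at 942 and 962 CPM and Emb at 1713 and 2133 CPM.

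**Figure D1:**
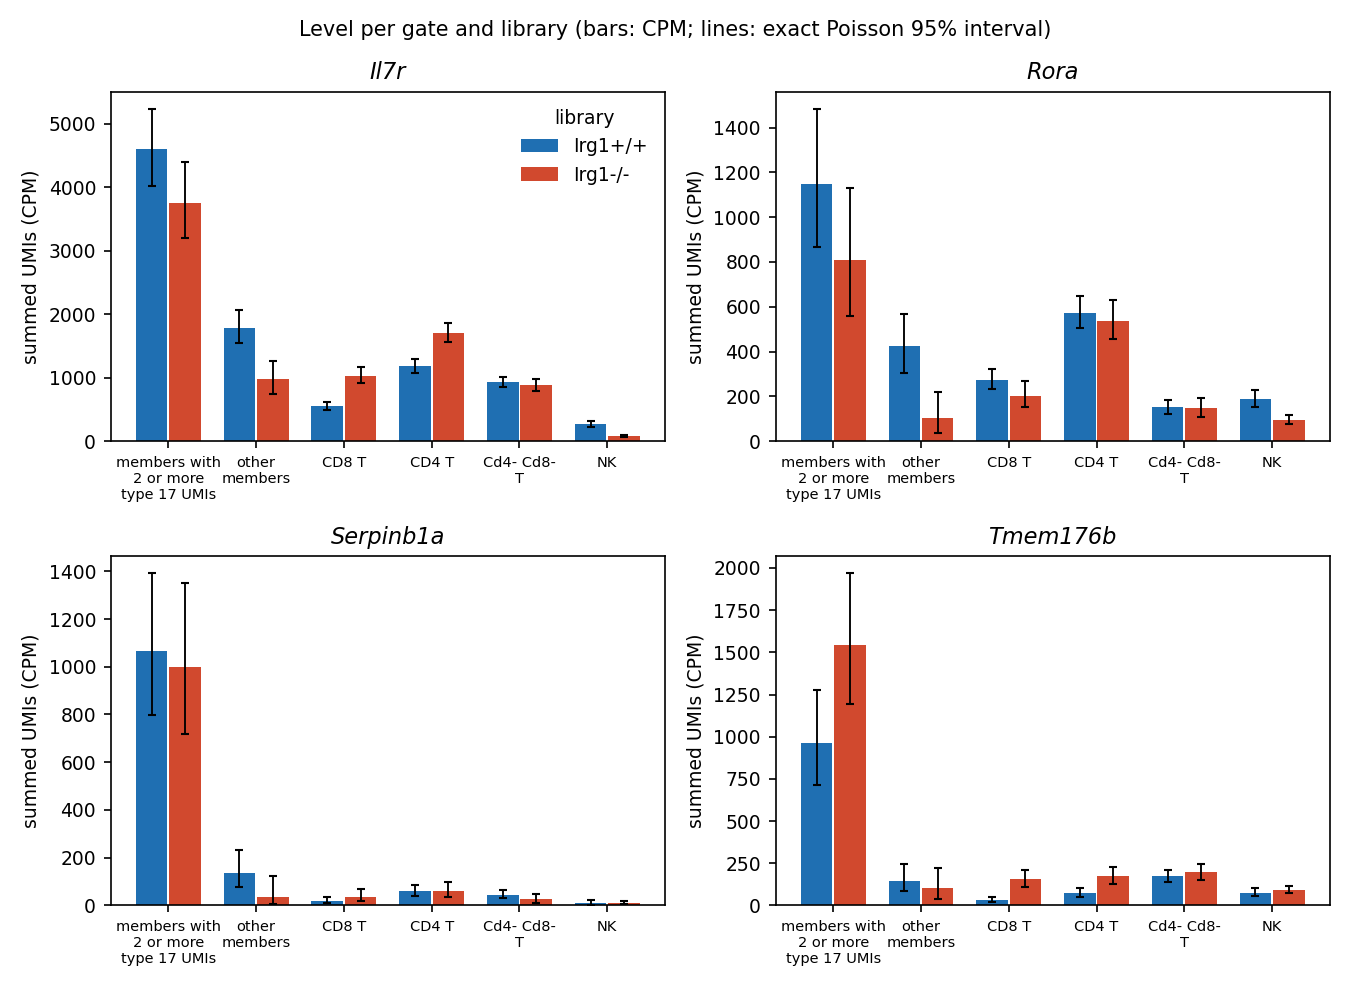
Levels in CPM of Il7r, Rora, Serpinb1a and Tmem176b in each gate of lymphocytes, by library, with exact 95% Poisson intervals for counting error as bars. Members are drawn apart as those with at least 2 UMIs of 9 type 17 genes (type 17 members) and other members. Il7r, Serpinb1a and Tmem176b are higher in type 17 members than in every other gate shown. In other members of the Irg1-/- library these genes lie below CD4 T cells. Rora in CD4 T cells lies between the levels of the 2 sides of the members.

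At the other end were genes that were lower in members than in CD8 T and Cd4- Cd8- T cells, the 2 gates that named them. The order says nothing of the other gates. Slfn1, a growth regulator of T cells, stood at 79.2 and 59.1 CPM, above the 27.1 and 53.4 CPM of NK cells, and Plac8 at 389.5 and 542 CPM against 1092 and 1109 CPM in CD8 T cells. Cxcl9, a chemokine that macrophages make in answer to interferon gamma, stood at 132 and 118 CPM against 703 and 761 CPM in the Cd4- Cd8- T cells. In the members with a Trdc UMI, Slfn1 stood at 51.4 and 44.2 CPM, Plac8 at 403 and 586 CPM and Cxcl9 at 119.9 and 133 CPM. The part of RNA from macrophages in the Cxcl9 difference was not tested. Trac, Ccl4, Lgals9, Parp14 and Ifi27l2a were named by the same rule. Isg15, a type I interferon response gene, stood at 85.8 and 197 CPM in members, at 165 and 267 CPM in CD8 T, 173 and 158 CPM in CD4 T, 242 and 389 CPM in Cd4- Cd8- T and 63.3 and 109.6 CPM in NK cells. In members with a Trdc UMI it stood at 94.2 and 221 CPM.

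Within the members, the type 17 genes were not spread evenly. A list of 9 genes, among them Il17a, Il17f, Il23r, Il1r1, Ccr6, Blk, Sox13 and Cd163l1, gave 183 UMIs in the Irg1+/+ members and 170 in the Irg1-/- members. At least 2 of these UMIs were found in 19 of 50 members (38%, interval 24.6 to 52.8) and 18 of 39 (46.2%, 30.1 to 62.8), called type 17 members here. Exactly 1 UMI was found in 2 and 1 members, and none in 29 and 20. In type 17 members the list gave 2 to 28 UMIs per cell with a median of 9 in the Irg1+/+ library, and 2 to 19 with a median of 10.5 in the Irg1-/- library. Most members thus carried either several UMIs of the list or none, with a few cells near the limit of 2. Thinning each cell to 2000 UMIs left 16 of 42 and 12 of 30 at or above the limit. Such cells were rare elsewhere, at 1.22% and 3.61% of CD8 T cells, 2.9% and 0.943% of CD4 T cells, 2.59% and 0.84% of Cd4- Cd8- T cells and 0 of 198 and 0 of 400 NK cells, which allows shares of up to 1.52% and 0.75%. B cells reached 30.6% and 28.8%, led by Blk, which B cells also express. A type 1 list of 10 genes, among them Tbx21, Ifng, Gzmb, Prf1, Nkg7 and Il2rb, had at least 2 UMIs in 46 of 50 (92%) and 37 of 39 members (94.9%). With nearly all members past this limit, it cannot show a split. The list stood at 1889 CPM in type 17 and 6635 CPM in other members of the Irg1+/+ library, with medians of 4 and 11 UMIs per cell. In the Irg1-/- library it stood at 2950 and 5741 CPM. Over all members the list stood at 5076 and 4584 CPM. In the Irg1+/+ library 1 member held 283 of its 769 UMIs, and without the top cell of each library, an alternative chosen after seeing the data, the levels were 3372.5 CPM (3079 to 3686) and 4416 CPM (4009.7 to 4853), against 5469 and 4976 CPM in CD8 T cells and 10138 and 11196.5 CPM in NK cells.

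The genes of the list in type 17 members are given as a description, since they set the split. Cd163l1 was found in 15 of 19 and 17 of 18 of these cells, with 67 and 57 UMIs. Blk, a Src family kinase, had 26 UMIs in 13 cells and 37 in 13. The IL-1 receptor gene Il1r1 had 23 and 24 UMIs, each in 10 cells, and the IL-23 receptor gene Il23r 16 and 11, each in 9 cells. Receptors for both cytokines that drive IL-17 release were thus seen in both libraries. Il17a itself had 29 UMIs in 6 cells, 13 of them in 1 cell, and 11 UMIs in 6 cells. Il17f had 0 and 5 UMIs, and Il22 had none in any member. The transcription factor gene Sox13 was shallow, with 12 and 16 UMIs, and Ccr6, a homing receptor, had 2 and 1.

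**Figure D2:**
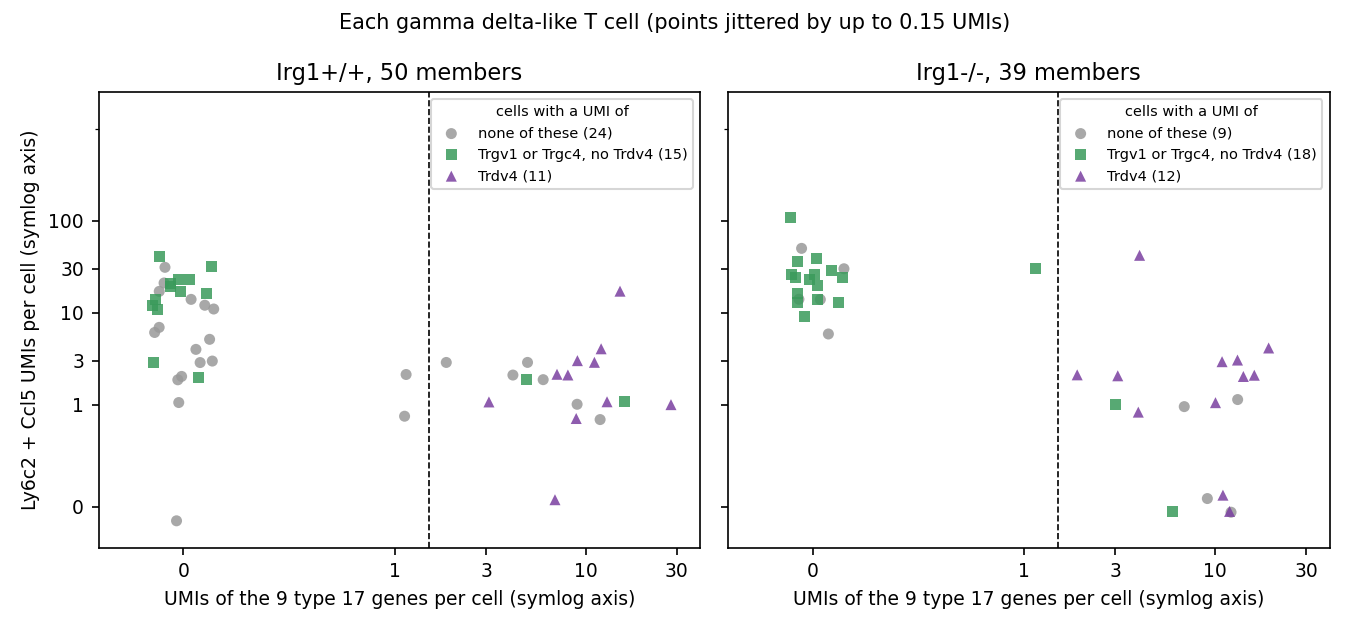
Each point is 1 member, with its UMIs of the 9 type 17 genes on the horizontal axis and its UMIs of Ly6c2 and Ccl5 on the vertical axis, by library, and marked by receptor genes found. The dashed line stands at the limit of 2 type 17 UMIs, and every member with a Trdv4 UMI, 11 and 12, lies on the type 17 side.

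Of the variable genes of the receptor, which took no part in the split, Trdv4 followed it. This gene, the delta variable gene of the invariant Vγ6 receptor, was found in 11 of 19 type 17 members (57.9%, interval 33.5 to 79.8) with 34 UMIs and in 12 of 18 (66.7%, 41.0 to 86.7) with 38 UMIs. It was found in 0 of 31 and 0 of 21 other members, which allows shares of up to 9.68% and 14.3%. Trgv6, which encodes Vγ6 itself, was found in 4 and 3 type 17 members, 3 and 2 of which also held Trdv4, and in no other member. Outside the members, Trdv4 had no UMI in 164 and 83 CD8 T cells (up to 1.83% and 3.61%) nor in 36 and 52 B cells (up to 8.33% and 5.77%). It was found in 7 of 198 (3.54%) and 17 of 400 (4.25%) cells of the NK gate, which does not exclude gamma delta T cells with few Cd3 UMIs. The Trdv4 share of type 17 members was thus above that of these gates by more than counting error.

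The Vγ1 gene Trgv1 was more frequent in the other members of the Irg1-/- library, with 19 UMIs in 11 of 21 against 0 of 18 type 17 members. In the Irg1+/+ library it did not separate the sides, with 7 UMIs (68.8 CPM) in 3 of 31 other members and 5 UMIs (100.5 CPM) in 1 of 19 type 17 members. No member held both Trdv4 and Trgv1. Between the libraries the Trgv1 share of other members was 9.68% (interval 2.04 to 25.8) against 52.4% (29.8 to 74.3), and these intervals do not overlap. Among other members with a Trdc UMI it was 3 of 23 (13.0%, 2.78 to 33.6) against 10 of 19 (52.6%, 28.9 to 75.6), and there the intervals overlap. Trgc4, which serves Vγ1 chains, gave 42 and 44 UMIs in other members and 8 and 15 in type 17 members. The share of cells with a Trgc4 UMI was 38.7% of other and 36.8% of type 17 members in the Irg1+/+ library and 71.4% and 55.6% in the Irg1-/- library. Among members with a Trdc UMI it was 47.8% of other and 53.8% of type 17 members in the first and 68.4% and 58.8% in the second, so the share of cells with Trgc4 differed little between the sides. Its level was lower in type 17 members, at 161 against 413 CPM (log2 ratio -1.29, interval -2.66 to -0.25) and 357 against 741 CPM (-1.02, -2.01 to -0.18), and at -0.99 and -1.09 among members with a Trdc UMI. In the same cells Trdv4 was found in 11 of 13 (84.6%, 54.5 to 98.1) and 12 of 17 (70.6%, 44.0 to 89.7) type 17 members and in 0 of 23 and 0 of 19 others. Trgc1, which serves Vγ6 and Vγ4 chains and was part of the rule, was present in every type 17 member, with 123 and 113 UMIs, and in 25 of 31 and 12 of 21 other members with 65 and 24 UMIs. Trgv2 did not separate the sides, with 4 and 4 type 17 and 6 and 6 other members, and Trgv4, of a second type 17 receptor, was at 0 in every member. Trac gave 11 and 8 UMIs in type 17 and 50 and 12 in other members. Variable gene UMIs were few, and a cell without one may still use that gene. A cell with a Vγ1 chain could enter the members through Trdc alone.

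**Figure D3:**
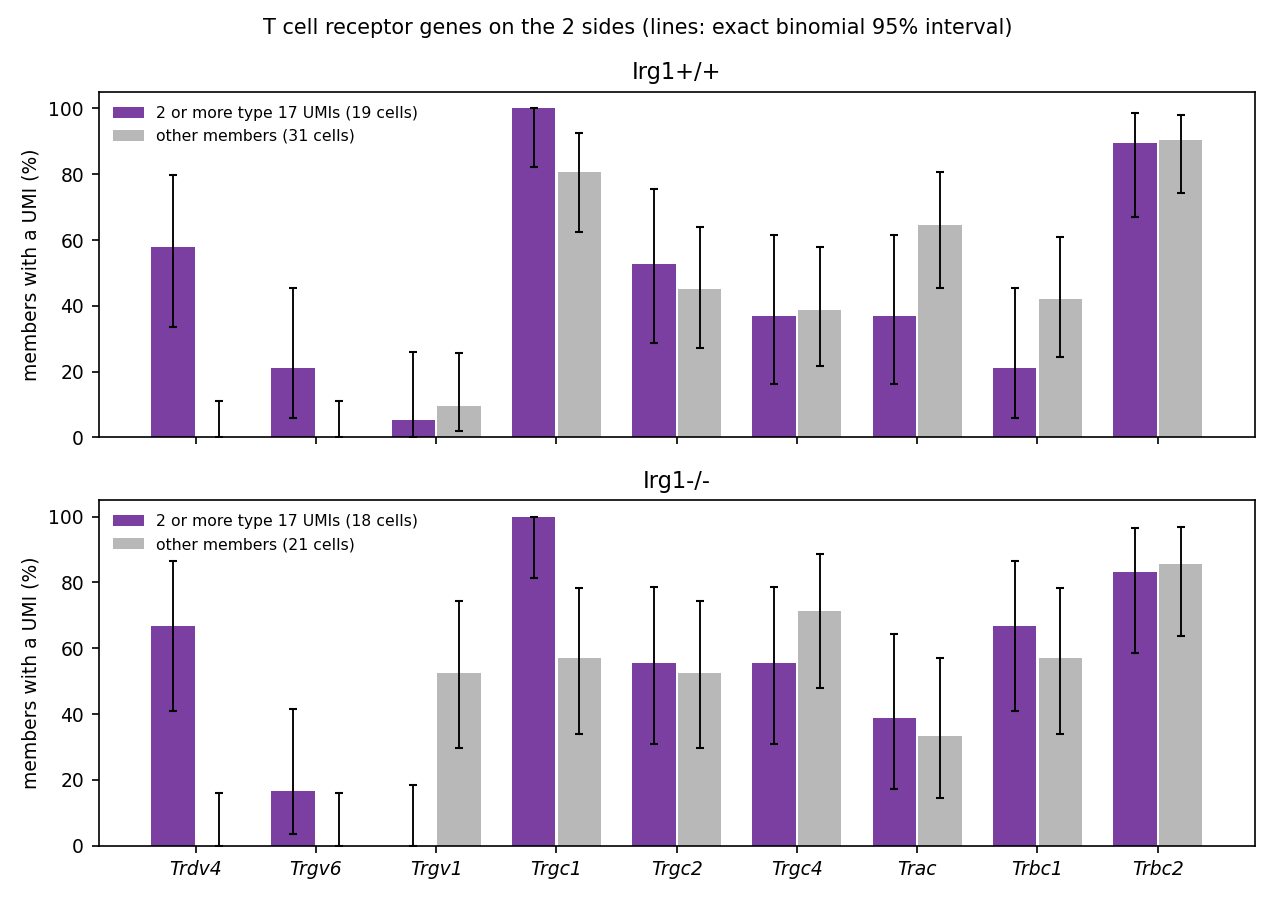
Percent of type 17 members and of other members with a UMI of each receptor gene, by library, with exact 95% binomial intervals as bars. Trdv4 is at 57.9% and 66.7% of type 17 members and at 0 in the others, and Trgv1 reaches 52.4% of the other members of the Irg1-/- library.

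The genes that ran with the type 17 list are given next. Among genes with at least 50 UMIs, 24 of 533 (4.5%) were at least 2-fold higher and 42 (7.88%) at least 2-fold lower in type 17 than in other members of the Irg1+/+ library, and 28 of 339 (8.26%) and 27 (7.96%) in the Irg1-/- library. Of the 332 genes with enough UMIs in both libraries, 8 were higher and 10 lower in both, and none was higher in one and lower in the other. The minimum of 50 UMIs is set on both sides together, so a gene high on 1 side reaches it more readily, and no count over a fixed list is given here as support. Of the wider type 17 list, Lgals3, a galectin, lay level, with 37 against 79 UMIs (log2 ratio -0.05) and 16 against 25 (-0.13), and had -0.60 and -0.17 among members with a Trdc UMI.

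Genes named here beyond the fixed lists were those with the largest ratios in both libraries, and so were chosen after their values were seen. Tmem176a was 3.28 and 5.68 and Tmem176b 2.68 and 3.83 higher on the log2 scale in type 17 members. Icos was 1.53 and 3.72 higher, and every type 17 member held at least 1 Icos UMI. Il7r was 1.36 and 1.94 higher, at 4603 against 1789 CPM and 3759 against 976 CPM, and its UMIs per type 17 member ran from 5 to 20 with a median of 14 in the Irg1+/+ library and from 1 to 25 with a median of 6.5 in the Irg1-/- library. Type 17 members held 229 of the 411 and 158 of the 216 Il7r UMIs of all members, and the level in the other members of the Irg1-/- library was near that of its CD8 T cells. The polyamine enzyme gene Odc1 was 1.22 and 1.70 higher, the chemokine receptor gene Ccr2 0.94 and 2.44 and Cd164 1.33 and 1.28. Rora was higher in type 17 members too, at 1146 against 423 CPM and 809 against 101.0 CPM. The split was also taken among members with a Trdc UMI, 13 type 17 and 23 other members in the Irg1+/+ library and 17 and 19 in the Irg1-/- library, an alternative chosen after seeing the data. There Tmem176a was 4.14 and 5.50, Tmem176b 3.16 and 3.85, Icos 1.85 and 3.89, Il7r 1.53 and 1.92 and Ccr2 0.99 and 2.35 higher. Odc1 was 1.64 and 1.71 and Cd164 1.45 and 1.14 higher there. Rora stood at 1360.4 against 217 CPM and 784 against 118 CPM in these cells, so its gap in the Irg1+/+ library was wider among cells with Trdc.

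Further genes with known roles in type 17 or tissue-dwelling cells were on the same side with fewer UMIs. Cxcr6 stood at 965 against 177 CPM and 738 against 50.5 CPM. Maf stood at 523 against 167 CPM and 952 against 84.2 CPM. Serpinb1a stood at 1065 against 138 CPM and 999 against 33.7 CPM. Zbtb16, which encodes the innate lymphocyte factor PLZF, gave 11 against 2 and 12 against 0 UMIs. The coinhibitory receptor gene Pdcd1 gave 14 against 9 and 17 against 2 UMIs. Lag3 and Havcr2 had few UMIs on either side, with 0 against 2 and 0 against 1 for Lag3 and 0 against 9 and 0 against 1 for Havcr2. The neuropeptide receptor gene Ramp1 gave 14 against 1 and 8 against 2 UMIs. Among members with a Trdc UMI, Cxcr6 stood at 1035 against 24.1 CPM and 759 against 39.3 CPM, Serpinb1a at 1183 against 12.1 CPM and 1062.5 against 39.3 CPM, and Maf at 444 against 145 CPM and 987 against 78.5 CPM. In these cells Zbtb16 gave 6 against 0 and 10 against 0 UMIs, Pdcd1 10 against 5 and 17 against 2 and Ramp1 11 against 1 and 8 against 0. Most Cxcr6 and Serpinb1a UMIs of the other members of the Irg1+/+ library were thus in cells without Trdc.

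Several genes of cytotoxic lymphocytes were higher in the other members, while other genes of the same kind were not in both libraries. Ccl5, a chemokine, was lower in type 17 members by log2 ratios of -2.32 and -2.38, Nkg7, a protein of cytotoxic granules, by -2.24 and -2.35, and Ms4a4b by -2.17 and -2.69. Among members with a Trdc UMI these ratios were -2.52 and -2.41, -2.26 and -2.26, and -1.94 and -2.63. Ly6c2, a surface protein of memory and effector T cells, had ratios of -1.39 and -3.04, Cd7 -1.80 and -2.28 and the signalling adaptor Fcer1g -1.31 and -0.79. The granzyme gene Gzma gave 7 against 14 UMIs in the Irg1+/+ library (log2 ratio 0.08) and 13 against 62 in the Irg1-/- library (-1.71). Gzmb had -3.92 in the Irg1+/+ library, where 1 other member held 209 of 263 UMIs, and 0.98 in the Irg1-/- library, with 31 against 22 UMIs, of which 1 type 17 member held 23. Without the top cell of each side the Irg1-/- UMIs were 8 against 18, so that direction rested on 1 cell. The receptor gene Klrk1 had -0.42 and 0.11, the cytotoxic lymphocyte gene Ctsw 0.34 and -1.57 and Il2rb, a receptor chain for IL-2 and IL-15, -0.25 and -0.65. The type 1 factors had few UMIs, Tbx21 with 0 against 12 and 3 against 14 and Ifng with 0 against 8 and 0 against 18. The NK receptor gene Klrd1 stood at 40.2 against 619 CPM and 166.5 against 623 CPM, and Klrc1 gave 1 against 32 and 2 against 37 UMIs. The chemokine gene Xcl1 gave 2 against 35 and 0 against 35 UMIs. Among members with a Trdc UMI the log2 ratios were -1.34 and -2.94 for Ly6c2, -1.40 and -2.24 for Cd7, -1.50 and -0.83 for Fcer1g and -3.23 and -1.66 for Klrd1. Klrc1 gave 1 against 32 and 2 against 36 UMIs in these cells, and Xcl1 2 against 31 and 0 against 32. Gzma gave 4 against 14 and 13 against 62 UMIs there, Gzmb 4 against 259 and 31 against 15, Tbx21 0 against 12 and 3 against 13, and Ifng 0 against 8 and 0 against 18. Klrk1 had log2 ratios of -0.02 and 0.16, Ctsw 0.58 and -1.61 and Il2rb -0.28 and -0.77.

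Genes of recirculation, memory and adhesion had no common direction. Klf2, a transcription factor that keeps lymphocytes in circulation, stood at 20.1 against 334 CPM and 238 against 606 CPM. S1pr1, the receptor that lets lymphocytes leave tissue, stood at 261 against 256 CPM in the Irg1+/+ library and at 238 against 572 CPM in the Irg1-/- library. Cd27, a costimulatory receptor that marks type 1 gamma delta T cells, gave 2 against 24 and 1 against 13 UMIs, and Cd2 stood at 161 against 432.5 CPM and 23.8 against 707 CPM. Tcf7, a transcription factor of naive and memory T cells, lay level with log2 ratios of -0.28 and -0.04. Among members with a Trdc UMI, Klf2 gave 1 against 32 and 10 against 29 UMIs, S1pr1 11 against 22 and 10 against 23, Cd27 2 against 20 and 1 against 13, and Cd2 6 against 40 and 1 against 35. The adhesion genes Cd44 (0.82 and 1.07) and Itgb7 (0.70 and 1.16) were on the type 17 side, and among members with a Trdc UMI they had 0.94 and 1.01 and 0.86 and 1.46. Tcf7 had 0.01 and -0.45 there. Cd5 gave 0 against 9 and 0 against 1 UMIs and Cd6 0 against 5 and 0 against 2, within counting error in each library. UMIs of Ly6c2 and Ccl5 together were not exclusive to the other members. In the Irg1+/+ library they ran from 0 to 17 per type 17 member with a median of 2 and from 0 to 41 with a median of 11 per other member, and in the Irg1-/- library from 0 to 42 with a median of 1 and from 6 to 108 with a median of 24. The ranges overlap in both libraries, while the medians lie far apart. Markers of NK cells that T cells seldom carry summed to 0 and 13 UMIs in type 17 members and 50 and 55 in other members, and their part in these levels was not tested.

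**Figure D4:**
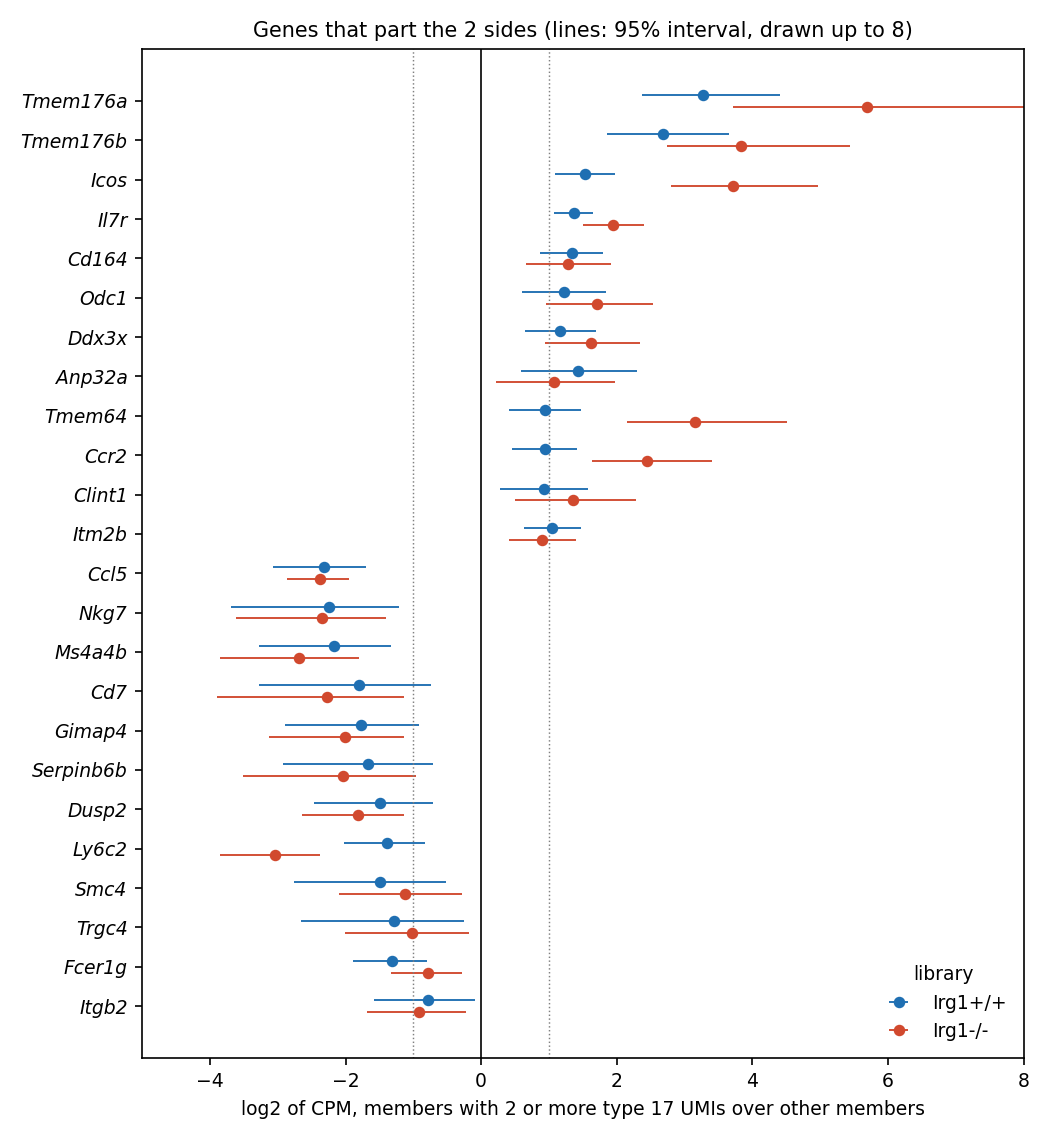
Log2 ratio of type 17 members over other members for 24 genes in each library, with exact 95% intervals for counting error as bars. Tmem176a, Tmem176b, Icos and Il7r lie on the positive side and Ccl5, Nkg7, Ms4a4b and Ly6c2 on the negative side in both libraries.

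The start sites of the type 17 genes were searched on both strands for AGGTCA, the core letters that Rora and its relatives bind, because Rora was higher in type 17 members. The windows ran from 250 bases before to 50 after each start in RefSeq on GRCm38.p6, and 7 of the 9 genes had an entry. The letters were found in 4 of these 7 (57.1%), in 1 of 8 genes with an entry of a type 1 list (12.5%) and in 4900 of 27025 promoters in all (18.1%). The 30 bases around each match are shown with the match in capitals, TGACCT being the same letters on the other strand.
Il17a, chr1:20730773-20730802, plus strand: gtggttctgtgcTGACCTcatttgaggatg
Il17f, chr1:20784311-20784340, minus strand: cagtcagtaaggAGGTCAgtggaaacaggg
Il23r, chr6:67491904-67491933, minus strand: aaatgaaaatgtAGGTCAgggctctgctga
Il23r, chr6:67492067-67492096, minus strand: catgaccaccatTGACCTgtttgacttctt
Ccr6, chr17:8235987-8236016, plus strand: cagtgaaatcatTGACCTagttacataagt
The letters TCACAC of the T-box motif was found in 1 of the 7 type 17 genes (14.3%), in 3 of the 8 type 1 genes (37.5%; Gzmb, Nkg7 and Xcl1) and in 16.4% of all promoters. These matches describe the letters in the windows and are not evidence of binding, and 7 and 8 genes are too few to compare the shares.

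The members took a similar share of both libraries. Of kept cells they were 0.796% (interval 0.591 to 1.05) under the Irg1+/+ label and 0.673% (0.479 to 0.919) under the Irg1-/- label. The second share minus the first was -0.123 percentage points, with an interval of -0.432 to 0.189. Of non-cycling cells with Cd3 UMIs and few C1q UMIs they were 7.33% and 9.29%, or 1.95 points apart with an interval of -1.32 to 5.55. Both intervals include 0. That second denominator itself was 10.9% of kept cells in the Irg1+/+ library and 7.25% in the other, while NK cells were 3.15% and 6.9%. The type 17 share of the members also had overlapping intervals, as given above. Counting only members with a C1q count of 0, the shares of kept cells were 0.175% and 0.293%, so the direction between the libraries turned. It also turned, by little, with a Trdc UMI required, which left 36 of 6284 and 36 of 5794 kept cells.

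Between the genotypes few genes of the members were 2-fold apart, and for several of those most UMIs came from 1 cell. Among 998 genes with at least 50 UMIs in both libraries together, 8 (0.802%) were at least 2-fold higher and 21 (2.1%) at least 2-fold lower in the library labelled Irg1-/-. With TMM scaling the numbers were 3 and 26, so that the higher genes were 27.6% of those past 2-fold on total UMIs and 10.3% with TMM. The balance turned in 3 settings that tested fewer genes. Thinning to 2000 UMIs gave 8 higher and 3 lower among 481 genes (72.7% higher), a C1q count of 0 gave 6 and 1 among 187 (85.7%), and members with fewer than 2 alpha and beta UMIs gave 4 and 2 among 47 (66.7%). It did not turn with a Trdc UMI required (7 and 16, 30.4%), with at least 3 Trdc and Trgc1 UMIs (8 and 16, 33.3%) or with mitochondrial UMIs under 5% (8 and 18, 30.8%). Gzma, a granzyme, was the highest, with 21 UMIs (139 CPM) in the Irg1+/+ members and 75 UMIs (739 CPM) in the library labelled Irg1-/-, a log2 ratio of 2.39 (interval 1.70 to 3.19). The Irg1-/- member with the most Gzma UMIs held 39 of the 75, and without the top cell of each library the ratio was 1.83. Gzma was seen in 13 members of each library. Among the 8 and 7 members with fewer than 2 UMIs of Trac, Trbc1 and Trbc2 its ratio was -0.74, from 9 and 5 UMIs.

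Ccl5 stood at 1584 and 3914 CPM, a log2 ratio of 1.30 (1.07 to 1.54), and at 1.13 without the top cells. In other members the ratio was 1.45 (1.21 to 1.70), and 1.24 without the top cell of each library. In type 17 members it was 1.39 (0.63 to 2.22) but rested on 1 Irg1-/- cell with 39 of 47 UMIs. Without the top cells of that side, an alternative chosen after seeing the data, it was -0.83, and Ccl5 was seen in 13 of 19 and 8 of 18 type 17 members. In CD8 T cells, in contrast, Ccl5 gave 4392 UMIs (7891 CPM) in the Irg1+/+ library and 1135 UMIs (4595 CPM) in the other. Gzma was also lower there in the library labelled Irg1-/-, at 967 and 547 CPM, so the 2 genes ran in opposite directions in members and CD8 T cells, and this difference was not tested. Ly6c2 had a ratio of 1.22 in other members, and 1.40 without the top cells. In type 17 members it was -0.43 with 29 and 18 UMIs, but 1 Irg1+/+ cell held 13, and without the top cells it was 0.12, so no direction is read from it. NK cells had far more Gzma, with 7474 and 9996 CPM, and Ccl5 at 5492 and 7730.3 CPM, and the NK markers in members were also higher in the library labelled Irg1-/-, at 670.4 against 330.1 CPM. Their part in these ratios was not tested.

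The remaining genes past 2-fold on the higher side had fewer UMIs. They were Trbc1 with 1.23, the repressor Klf3 with 1.07, the phosphatase gene Ptpn6 with 1.06, Midn with 1.06, Blk with 1.03 and Ms4a6b with 1.01, and their intervals began between 0.24 and 0.63. Of the 9 type 17 genes, Blk alone was past 2-fold among the 2 with enough UMIs. The 9 genes together stood at 1208 CPM (1039 to 1396) and 1676 CPM (1433.5 to 1948). Cd163l1 had a log2 ratio of 0.37 (-0.16 to 0.90), and none of 12 genes of the wider type 17 list was 2-fold higher or lower. Of 9 genes of the wider type 1 list 2 were higher, Gzma and Ccl5, and of 6 genes of the shorter type 1 list 1 was lower, Gzmb. All genes gave 0.802% higher and 2.1% lower.

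With 0.802% of all genes 2-fold higher and 2.1% lower, short lists would mostly hold none, and the absence of such genes says little about a list. The medians are given as a description. No gene was past 2-fold among 4 naive and recirculation genes (median log2 ratio 0.86), 5 homing genes (-0.37), 3 costimulation genes (-0.77), 2 interferon response genes (0.38), 10 immediate early and heat shock genes (0.20), 5 genes of the receptor complex (0.10), 3 gamma and delta genes (0.75), 3 epidermal gamma delta genes (0.50) and 2 regulatory T cell genes (-0.05), counting those with at least 50 UMIs. The median of all 998 genes was 0.02. Of the alpha and beta constant genes Trbc1 was higher and Trac lower, and of 5 genes for secreted factors Ccl5 was higher.

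On the lower side, single cells carried the largest ratios. Gzmc had a ratio of -5.04, but 215 of its 221 UMIs in the Irg1+/+ members came from 1 cell, and without the top cells the ratio was -0.35. The same held for Gzmb, with 209 of 271 UMIs in 1 cell and a ratio of -1.77 that came to -0.47, and for Ifitm1, with 34 of 43 and -1.96 that came to -0.03. Gzmb, moreover, was higher in the type 17 members of the library labelled Irg1-/-, with 31 against 8 UMIs, 23 of them in 1 cell, and lower in its other members, with 22 against 263. Without the top cells of each side these came to 8 against 5 UMIs and 18 against 54. Leaving out the Irg1+/+ member with the most Gzmb UMIs, an alternative chosen after seeing the data, left 6 genes higher and 16 lower.

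Of the other 7 genes named on this side, Mmp25, Zfp292, Fryl, Thbs1, Mt1 and Cxcl2 stayed past -1 without the top cells, and Cxcl10 did not. Mmp25, a membrane-bound metalloproteinase, gave 48 UMIs (317 CPM) in the Irg1+/+ members and 8 UMIs (78.9 CPM) in the others, a log2 ratio of -1.93 (-3.30 to -0.91) and of -2.34 without the top cells. It was lower on both sides, by -1.87 in type 17 and -2.68 in other members, with 32 against 7 and 16 against 1 UMIs. Thbs1, a matrix protein made by myeloid cells, had a ratio of -1.40 and of -1.39 without the top cells, and its Irg1+/+ top cell held 81 UMIs. Zfp292 had -1.36 and Fryl -1.27. Mt1 (-1.59), Cxcl10 (-1.52) and Cxcl2 (-1.46) came to -1.27, -0.81 and -1.15 without the top cells. The Cxcl10 ratio turned to 0.43 with mitochondrial UMIs under 5%, and to 2.40, from 0 and 3 UMIs, with a C1q count of 0. Macrophages make Cxcl10, Cxcl2 and Thbs1, and the macrophage markers stood at 2931 and 2435 CPM in these members; their part in the ratios was not tested.

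**Figure D5:**
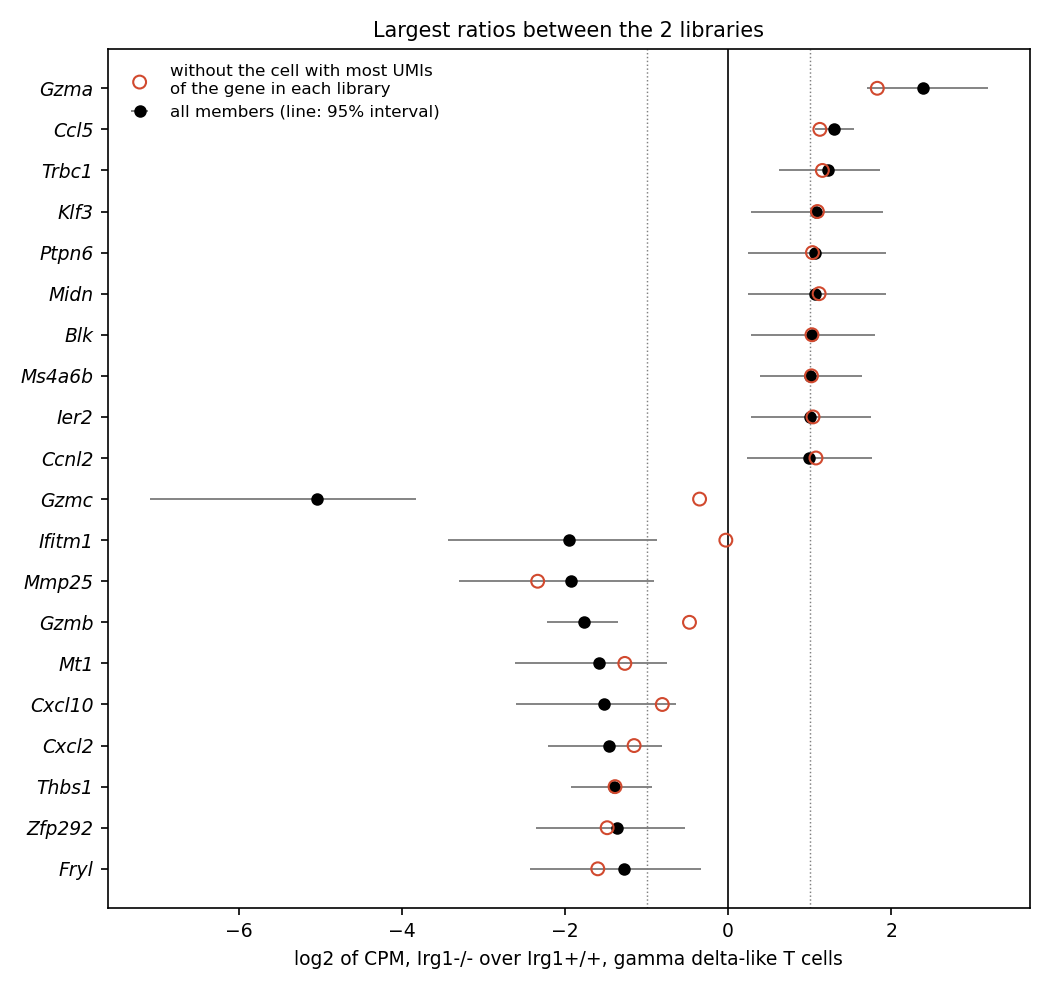
Log2 ratio of Irg1-/- over Irg1+/+ members for 20 genes named by rank, with exact 95% intervals for counting error. Hollow points show the ratio without the cell with the most UMIs of the gene in each library, which brings Gzmc, Gzmb and Ifitm1 close to 0 and leaves Gzma, Ccl5 and Mmp25 past 1 or -1.

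Several genes that ran with the type 17 list were lower in the other members of the library labelled Irg1-/-. In other members Icos had a log2 ratio of -2.21, Rora -1.97, Ccr2 -1.56 and Il7r -0.87, while in type 17 members the ratios were -0.02, -0.49, -0.06 and -0.29, and the difference between the sides was not tested. Without the top cells of each side the ratios were -2.12, -2.51, -1.74 and -0.91 in other and -0.08, -0.52, -0.02 and -0.43 in type 17 members. Part of the gap lay in members without Trdc. Among the other members of the Irg1+/+ library, the 8 cells without a Trdc UMI had 1861 CPM of Icos, 1329.5 CPM of Rora and 1383 CPM of Ccr2, against 482, 217 and 627 CPM in the 23 cells with one. They also had 1223 against 326 CPM of Trac and 798 against 2460 CPM of Ccl5. In the other members of the library labelled Irg1-/- with a Trdc UMI, 19 cells, Icos stood at 137 CPM, Rora at 118 CPM and Ccr2 at 275 CPM, and the log2 ratios were -1.73 (-3.21 to -0.64), -0.81 (-2.50 to 0.51) and -1.15 (-2.16 to -0.32). The gap of these genes was narrower among cells with Trdc, and for Rora, with 18 and 6 UMIs, it lay within counting error. Il7r had -0.71 (-1.22 to -0.23) there, little changed from -0.87 and past counting error. One Irg1+/+ cell held 20 of the 40 Icos UMIs. Without the top cells the ratios were -1.21 for Icos, -1.38 for Rora, -1.14 for Ccr2 and -0.73 for Il7r. Over all members, requiring at least 1 Trdc UMI brought the log2 ratio of Trac from -1.01 to -0.61 and that of Icos to 0.28, so that its direction turned. The same step left Gzma at 2.40 and Ccl5 at 1.11.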

How the data were processed

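Each genotype was 1 BD Rhapsody whole transcriptome library of sorted Cd45+ cells. The authors trimmed reads with fastp, found cell barcodes with UMI-tools, aligned to the mouse genome (Ensembl release 100; GRCm38 in the submitters' processing notes, which also name CASAVA 1.8 and Seurat) with STAR and deposited raw counts of UMIs per gene and cell. The libraries held 6408 and 5896 barcodes with 43617546 and 36432067 UMIs. The deposited counts were used without correction for background RNA or a doublet caller. Only the limits on C1q and cycling genes stand in for a doublet caller. An alternative without cells above 3 times the median depth removed no member, so it could not check the members for doublets.

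UMIs were summed over the cells of a gate in each library without mitochondrial genes with numpy 2.4.6 and scipy 1.17.1 in Python 3.11.15. Log2 ratios used a pseudocount of 0.5 UMIs. Levels have exact Poisson, shares exact Clopper-Pearson, differences of shares Newcombe and ratios exact conditional binomial intervals, and a count of 0 allows 3 counts. With 1 library per genotype no test was made. Sums and intervals were tested on simulated data. The CD8 T, CD4 T, Cd4- Cd8- T and NK gates used the same limits on mitochondrial, cycling and C1q genes. Of these limits the B cell gate used only the mitochondrial one.

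Genes were named by rule: the 10 highest and 10 lowest ratios between libraries, the 12 genes with the highest smallest ratio to 4 other lymphocyte gates, the 8 lowest against CD8 and Cd4- Cd8- T cells, with at least 50 UMIs and a UMI in at least 10% of cells, and the genes of fixed lists. Some genes of these lists are not reported here. The members and lists were chosen with earlier results of these data known. Alternatives were TMM (R 4.3.3, edgeR 4.0.16) and median-of-ratios scaling, other UMI minimums, a mean over cells, other limits for members and thinning to 2000 UMIs.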

Additional observations from a re-analysis of the deposited data

How the results depend on the processing

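No paired analysis was possible because each genotype is 1 library. Requiring at least 3 Trdc and Trgc1 UMIs left 46 and 37 members, and requiring a Trdc UMI left 36 and 36, with 0.573% of kept and 5.28% of Cd3 cells in the Irg1+/+ library. Without cells of 2 or more Trac, Trbc1 and Trbc2 UMIs only 8 and 7 members were left, which were 0.127% and 0.121% of kept and 1.17% and 1.67% of Cd3 cells. A C1q count of 0 left 11 and 17 members, 0.175% and 0.293% of kept cells. Leaving out cells deeper than 3 times the median of the members removed no member and gave 1.08% and 0.942% of the fewer kept cells, and thinning before the gate gave 5.22% of Cd3 cells in the Irg1+/+ library. The share of type 17 members lay between 36% and 51.3% in the Irg1+/+ library and between 40% and 58.8% in the Irg1-/- library under all alternatives but members with under 2 alpha beta UMIs, which gave 62.5% of 8 in the first. At least 2 UMIs of the type 1 list were found in 100% of Irg1-/- members with under 2 alpha beta UMIs and with a C1q count of 0, and at least 1 UMI in 100% of all.

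Between the libraries, TMM gave 3 genes higher and 26 lower, and median-of-ratios scaling 9 and 21. A minimum of 20 UMIs gave 103 and 180, no minimum 1729 and 2691, and the mean over cells 13 and 26. The balance of 27.6% higher turned in 3 settings that tested fewer genes. Thinning gave 8 higher and 3 lower (72.7% higher), a C1q count of 0 gave 6 and 1 (85.7%) and members with under 2 alpha beta UMIs 4 and 2 (66.7%). Against CD8 T cells the members with under 2 alpha beta UMIs gave 368 higher and 459 lower genes in the Irg1+/+ library and 77 and 142 in the Irg1-/- library.

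Among the 8 and 7 members with under 2 alpha beta UMIs, the log2 ratio between the libraries turned for Gzma (-0.74, 9 and 5 UMIs), Ptpn6 (-0.80, 4 and 2) and Blk (-0.25, 10 and 8). For Klf3 (-1.53), Ifitm1 (1.64) and Trac (1.64) it rested on 1 UMI in all. Gzmc (0 and 0 UMIs), Cxcl10 (1 and 1) and Zfp292 (2 and 2) had equal UMIs, so their 0.051 is that of the summed depths and no change of direction. With thinning it turned for Midn (-0.047), Gzmc (0.016) and Gzmb (0.77), with a C1q count of 0 for Gzmc (1.18, 0 and 1 UMIs), Gzmb (1.09), Cxcl10 (2.40, 0 and 3 UMIs) and Trac (0.14), and with mitochondrial UMIs under 5% for Cxcl10 (0.43). Without the top cell of each side, the Ccl5 ratio in type 17 members turned to -0.83. The cause was not tested. Of all ratios over all members recomputed, 777 moved by less than their counting interval, 108 by more, and 17 of those past 2-fold changed sign, the 3 with equal UMIs among them. With 89 members, a gene of 50 UMIs cannot show differences much below 2-fold, and the libraries cannot tell genotype from sample.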
